A study of Mus musculus with 9 samples.

Results

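Keratin transcripts were followed in mouse embryonic stem cells in which Suz12 can be removed with auxin and returned by washing it out. The genes described are 10 keratins, Krt5, Krt7, Krt8, Krt13, Krt14, Krt17, Krt18, Krt19, Krt20 and Krt42, out of 48440 genes in the count tables and 54 genes of the keratin family. They were selected on the counts of auxin-treated and mock cells, once Krt13 had been seen nearly lost with auxin. That difference is therefore given as a description with no test. Of the 10 genes, 8 had enough counts to be tested. Krt5 and Krt20 had too few.

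All cells were of the J1 embryonic stem cell line with the genotype Suz12-AID, in which Suz12 carries a degron that destroys the protein when auxin (indole-3-acetic acid) is present. Suz12 protein was not analysed here. The Mock group is the control. The Auxin group received 50 µM auxin for 96 h. The Re-introduction group also received 50 µM auxin for 96 h, which was then washed out for 4.5 h. Each group has 3 biological replicates. Every group, controls included, was kept on gelatin in medium with 15% serum, leukemia inhibitory factor and the 2i inhibitors, PD0325901 at 1 µM (against MEK) and CHIR99021 at 3 µM (against GSK3). The labels name neither the number of clones nor cells that lack the degron. An action of auxin itself and the loss of Suz12 therefore cannot be told apart here. No washed group without auxin is named either, so washing and the return of Suz12 cannot be told apart in Re-introduction. Polyadenylated RNA was sequenced as paired reads of 75 bases.

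Keratins are the intermediate filament proteins of epithelia. A filament forms only when an acidic type I keratin pairs with a basic type II keratin, so the cell needs both kinds. Krt8 (type II) and Krt18 (type I) are the pair of simple epithelia and the first keratins of the mouse embryo, where they mark trophectoderm, with Krt19 and Krt7 as further simple-epithelial members. Krt5 and Krt14 form the pair of the basal layer of stratified epithelia. The complex that Suz12 holds together, PRC2 of the Polycomb group, methylates lysine 27 of histone H3 at repressed genes, and many tissue-specific genes carry that mark in stem cells. The mark itself was not analysed here.

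The 4 promoters below belong to Krt8 and Krt18, the pair whose transcripts were highest in Auxin and Re-introduction, and to Krt13 and Krt42, which were lower there than in Mock. Each is the 250 bases before the RefSeq start site (GRCm38.p6, the build called mm10), written 5′ to 3′ on the strand of the gene. Capitals mark the motifs found among 7 that were searched on both strands. Krt8 lies at chr15:102004343-102004592 on the minus strand, Krt18 at chr15:102027966-102028215 on the plus strand, Krt13 at chr11:100121567-100121816 on the minus strand, and Krt42 at chr11:100269952-100270201 on the minus strand.
Krt8: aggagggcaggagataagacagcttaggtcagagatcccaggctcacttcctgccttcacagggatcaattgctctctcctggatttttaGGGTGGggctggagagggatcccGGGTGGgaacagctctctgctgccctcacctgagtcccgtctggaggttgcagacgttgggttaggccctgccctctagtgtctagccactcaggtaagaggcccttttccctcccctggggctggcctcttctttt
Krt18: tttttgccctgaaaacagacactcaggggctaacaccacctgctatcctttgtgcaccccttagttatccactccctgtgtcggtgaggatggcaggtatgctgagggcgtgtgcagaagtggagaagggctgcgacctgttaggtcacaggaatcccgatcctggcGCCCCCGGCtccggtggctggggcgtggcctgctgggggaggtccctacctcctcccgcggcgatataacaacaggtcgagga
Krt13: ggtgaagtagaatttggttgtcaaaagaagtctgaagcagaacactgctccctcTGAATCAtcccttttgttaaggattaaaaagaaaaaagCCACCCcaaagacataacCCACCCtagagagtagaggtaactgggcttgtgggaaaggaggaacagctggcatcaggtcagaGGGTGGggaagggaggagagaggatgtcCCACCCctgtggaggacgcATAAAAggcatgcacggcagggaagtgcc
Krt42: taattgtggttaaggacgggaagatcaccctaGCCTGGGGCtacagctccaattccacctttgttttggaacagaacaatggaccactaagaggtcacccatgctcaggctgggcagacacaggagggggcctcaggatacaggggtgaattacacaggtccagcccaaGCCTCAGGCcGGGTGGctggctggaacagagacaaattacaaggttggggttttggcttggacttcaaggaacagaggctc

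The motifs were TATAAA (the TATA box) and its variant ATAAAA, which can overlap it, GGGCGG (the Sp1 box), CCACCC (the KLF and Sp box), TGANTCA (AP-1), GCCNNNGGC (AP-2, which can overlap GGGCGG) and AACCNGTT (Grainyhead-like). The Krt8 window holds CCACCC on its other strand, 160 and 137 bases before the start. The Krt18 window holds 1 motif, GCCNNNGGC, 83 bases before the start, and 12 CpG dinucleotides against 3 in Krt8. The Krt13 window holds CCACCC 158, 140, 76 and 48 bases before the start, TGANTCA 196 bases before it and ATAAAA 29 bases before it. RefSeq lists another Krt13 start, 989 bases inside the gene, whose window has TGANTCA 183 and 34 bases before that start, no CCACCC or ATAAAA, and 4 CpGs. The Krt42 window holds CCACCC 71 bases before the start and GCCNNNGGC 218 and 81 bases before it. The printed windows of Krt13 and Krt42 have 2 CpGs each.

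Of all 32851 promoters of that length, 28.1% hold CCACCC, 13.7% GCCNNNGGC, 6.75% TGANTCA and 17% ATAAAA. The other motifs are in 32.7% (GGGCGG), 12.4% (TATAAA) and 1.79% (AACCNGTT). The median promoter has 6 CpGs, with quartiles of 2 and 16. Of the 10 genes, 8 matched an entry. Krt17 and Krt19 did not. A match is a string of letters, and whether a factor binds it was not measured.

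Library totals ran from 44341283 to 113931419 counts, with both mates of a pair counted. Correlations of log2 CPM across genes were 0.989 to 0.995 within groups and 0.936 to 0.977 between them. Suz12 mRNA, which the degron does not target, was at 133 ± 6.6, 141 ± 17 and 168 ± 4.5 CPM in Mock, Auxin and Re-introduction (mean ± SD, n = 3). Mitochondrial genes took 3.79% to 4% of counts in Mock and Auxin and 4.58% to 4.8% in Re-introduction, and their part in the results was not tested. Stem cell markers were present in every library. In bulk RNA, fewer cells that express a gene and less RNA per cell cannot be told apart.

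Krt8 and Krt18 were lowest in Mock, higher in Auxin and highest in Re-introduction. Krt8 (ENSMUSG00000049382.9, mm10 chromosome 15, 101996711 to 102004342, minus strand) had 12.8, 11.5 and 11.5 CPM in the Mock libraries, 22.2, 25.1 and 21.1 in the Auxin libraries, and 40.2, 40.1 and 42.3 in those of Re-introduction, in replicates 1 to 3. CPM are counts scaled to library size with TMM factors. Every Auxin library was above every Mock library, and every Re-introduction library was above every Auxin library. The change in Re-introduction against Auxin was 0.84 on the log2 scale (SE 0.0738, edgeR quasi-likelihood, adjusted p = 3.84e-06), a 1.79-fold difference. Against Mock it was 1.77 (SE 0.0761, adjusted p = 1.42e-08), a 3.42-fold difference. The fitted value of Auxin against Mock, the contrast that chose the genes, was 0.93 (SE 0.0753). These 3 comparisons share libraries pairwise, so their values are not independent of each other.

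Krt18 (ENSMUSG00000023043.6, chromosome 15, 102028216 to 102032026, plus strand) is the type I partner of Krt8 and its near neighbour on the chromosome. It had 4.14, 3.08 and 4.03 CPM in the Mock libraries, 12.9, 14.5 and 12.8 in the Auxin libraries, and 21.4, 21 and 22.4 in those of Re-introduction. The groups did not overlap, in the same order as for Krt8. Krt18 rose by 0.69 log2 units from Auxin to Re-introduction (SE 0.0974, adjusted p = 1.44e-04), which is 1.61-fold. It was 5.75-fold higher in Re-introduction than in Mock (log2 2.52, SE 0.106, adjusted p = 1.23e-08), and the fitted value in Auxin against Mock was 1.84 (SE 0.105).

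Krt19, a type I keratin of simple and ductal epithelia with an unusually short tail, took another course. It (ENSMUSG00000020911.14, chromosome 11, 100140810 to 100148665, minus strand) had 7.62, 6.17 and 6.95 CPM in the Mock libraries, 3.93, 4.25 and 3.71 in the Auxin libraries, and 23.8, 23.4 and 24.4 in those of Re-introduction. Auxin libraries were the lowest and Re-introduction libraries the highest, with no overlap. The rise from Auxin to Re-introduction was 6.02-fold (log2 2.59, SE 0.0884, edgeR adjusted p = 3.70e-09), and 62 of the 20838 genes tested had a higher log2 fold change in that comparison. Against Mock, Krt19 was 3.45-fold higher in Re-introduction (log2 1.79, SE 0.0839, adjusted p = 2.60e-08). Its fitted value in Auxin against Mock was -0.80 (SE 0.0883).

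Krt7, a type II keratin of ducts and of simple epithelia, and Krt20, a type I keratin of intestinal epithelium and urothelium, were near the limit of detection. Krt7 (ENSMUSG00000023039.16, chromosome 15, 101411043 to 101430313, plus strand) had 6, 6 and 5 counts in the Mock libraries, 16, 20 and 11 in the Auxin libraries, and 36, 11 and 24 in those of Re-introduction. These are 0.0669 ± 0.0076, 0.206 ± 0.052 and 0.33 ± 0.11 CPM (mean ± SD, n = 3). Re-introduction lay above Mock without overlap and overlapped Auxin. The fitted difference was 2.32 from Mock (SE 0.386) and 0.70 from Auxin (SE 0.332). Krt7 entered the fit through Auxin and Re-introduction, as no Mock library reached the count filter of 0.131 CPM, so its difference from Mock is a description with no test. The longest transcript of Krt7, of 4094 bases, matches parts of 132 other genes at 90% identity or more over at least 75 bases. The few counts of Krt7 are therefore uncertain. Its counted exons hold 7055 bases in all, and the bases outside that transcript were not searched.

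Krt20 (ENSMUSG00000035775.2, chromosome 11, 99428403 to 99438150, minus strand) had 1, 2 and 0 counts in the Mock libraries, 1, 2 and 1 in the Auxin libraries, and 12, 2 and 5 in those of Re-introduction. In CPM, every Re-introduction library was above every other library, and the highest was replicate 1, at 0.151 CPM. The ratio of Re-introduction to Mock, 19 counts against 3, was 7.9 with an exact 95% interval of 2.33 to 41.7. Such intervals cover counting error only, and mates of 1 pair count separately, so they are too narrow. Between Auxin and Mock, 4 counts against 3, the ratio was 1.51 (0.256 to 10.3), a difference not detectable at this depth.

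**Figure D1:**
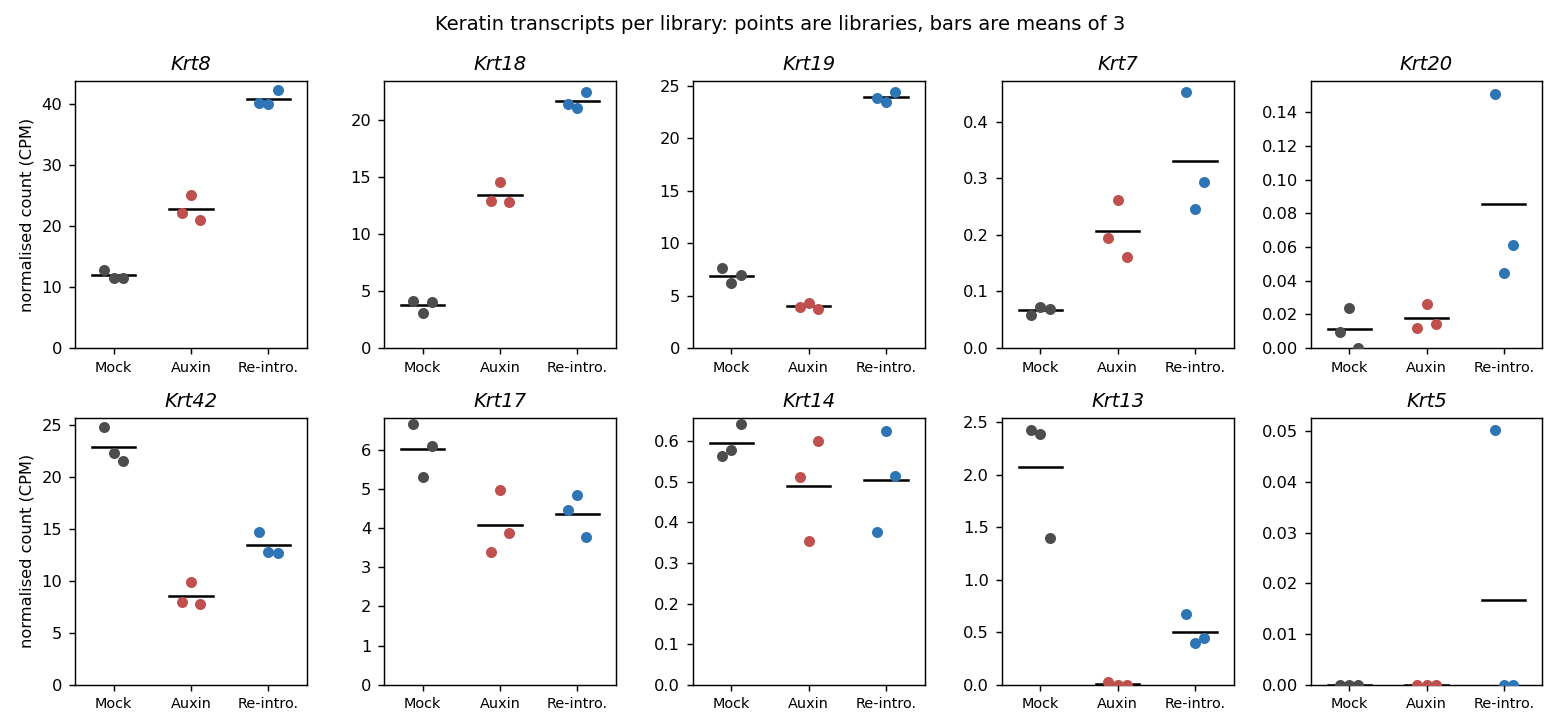
Normalised counts (CPM, linear axis from 0, a scale of its own in each panel) of the 10 keratin genes by group. Points are libraries and bars are means of 3. Krt8 and Krt18 climb from Mock through Auxin to Re-introduction, Krt19 is lowest in Auxin at 3.96 CPM and highest in Re-introduction at 23.9 CPM, and Krt13 is at 0 in 2 of 3 Auxin libraries.

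Krt42, a type I keratin gene of the chromosome 11 cluster, was highest in Mock. It (ENSMUSG00000053654.7, 100262882 to 100269871, minus strand) had 24.8, 22.3 and 21.5 CPM in the Mock libraries, 7.95, 9.85 and 7.77 in the Auxin libraries, and 14.7, 12.8 and 12.7 in those of Re-introduction. Re-introduction lay between the other groups, and none overlapped. Krt42 rose 1.57-fold from Auxin (log2 0.65, SE 0.103, edgeR adjusted p = 3.06e-04) and was still 1.71-fold lower than in Mock (log2 -0.77, SE 0.0997, adjusted p = 4.07e-05). The fitted value in Auxin against Mock was -1.42 (SE 0.102).

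Krt17, a type I keratin of skin appendages that is induced in injured epidermis, lies next to Krt42 (ENSMUSG00000035557.9, chromosome 11, 100256217 to 100261029, minus strand). It had 6.65, 5.31 and 6.1 CPM in the Mock libraries, 3.39, 4.96 and 3.86 in the Auxin libraries, and 4.45, 4.83 and 3.76 in those of Re-introduction. Auxin and Re-introduction overlapped, and both lay below Mock. The difference between Re-introduction and Auxin was 0.09 (SE 0.152, edgeR adjusted p = 0.66). Re-introduction was 1.39-fold lower than Mock (log2 -0.48, SE 0.149, adjusted p = 0.0143), a call that 3 settings ended. With the length and GC trends of the libraries removed the value was -0.10 (adjusted p = 0.476), with total counts as the only scaling it was -0.35 (adjusted p = 0.0523), and without Re-introduction replicate 3 it was -0.40 (adjusted p = 0.0536).

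Krt14, the type I keratin of basal stratified epithelium (ENSMUSG00000045545.8, chromosome 11, 100203162 to 100207548, minus strand), had 0.563, 0.579 and 0.643 CPM in the Mock libraries, 0.512, 0.354 and 0.599 in the Auxin libraries, and 0.376, 0.624 and 0.515 in those of Re-introduction. All groups overlapped. The differences of Re-introduction were 0.02 from Auxin (SE 0.264, edgeR adjusted p = 0.954) and -0.26 from Mock (SE 0.255, adjusted p = 0.377), and the sign of both depended on the setting. Krt5, its type II partner (ENSMUSG00000061527.6, chromosome 15, 101707070 to 101712891, minus strand), had 0 counts in 8 of the 9 libraries and 4 counts in Re-introduction replicate 1. With so few counts, all from 1 library, no difference of Krt5 between groups was detectable, and a fit without the count filter gave an edgeR adjusted p of 0.199 for Re-introduction against Mock. Krt5 shares exon bases with Gm44323, and strand was not used.

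Krt13, a type I keratin of the mucosal lining of mouth and oesophagus, is the gene behind the choice (ENSMUSG00000044041.4, chromosome 11, 100117327 to 100121566, minus strand). It had 249, 198 and 100 counts in the Mock libraries, 2, 0 and 0 in the Auxin libraries, and 54, 18 and 36 in those of Re-introduction. In CPM the Mock libraries had 2.42, 2.39 and 1.4, Auxin replicate 1 had 0.0244 and the others 0, and Re-introduction had 0.678, 0.401 and 0.441. The groups did not overlap, and Mock replicate 3 was the lowest of its group. Over the group, 547 counts in Mock stood against 2 in Auxin, a ratio of 241. It rests on those 2 counts, so its size is not precise.

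Re-introduction held 108 counts of Krt13, a ratio of 59.4 to Auxin that is no more precise. All of the Auxin counts came from replicate 1. Without that library Auxin was at 0, and against a floor of 3 counts over the group Krt13 was at least 25.3-fold higher in Re-introduction. Re-introduction was in turn 4.01-fold lower than Mock (log2 -2.00, SE 0.296). Both comparisons share a group with the contrast that chose the gene, so no test is given for Krt13. The tests of the other keratins share those groups too, so they are not independent of the choice.

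In the Auxin against Mock contrast 3 of the 8 tested keratins passed the threshold as higher and 4 as lower, where 73.2% of all 20838 genes passed in either direction (38.4% higher, 34.8% lower). The CPM of 7 of the 8 did not overlap between the groups, beside 74.3% of all genes. The genes were chosen in that contrast, and nothing is read from these counts. Krt7 and Krt13 were over the count filter only in the groups where they were high and are left out of the counts that follow, a choice made after their values were seen. Of the other 6, in Re-introduction against Auxin 4 rose (Krt8, Krt18, Krt19 and Krt42), none fell, and Krt14 and Krt17 did not pass. Of all genes tested, 50.9% passed there (25.5% higher, 25.5% lower). The CPM of 4 of these 6 did not overlap, beside 58.2% of all genes. In Re-introduction against Mock, Krt8, Krt18 and Krt19 were higher, Krt17 and Krt42 were lower, and Krt14 did not pass, beside 68.1% of all genes (34.7% higher, 33.4% lower). The CPM of 5 of these 6 did not overlap between Re-introduction and Mock, beside 75.2% of all genes.

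The median log2 fold change of these 6 keratins was 0.67 in Re-introduction against Auxin and 0.76 in Re-introduction against Mock, and the median of all genes was 0.00 and 0.03. In Auxin against Mock the medians were -0.43 and 0.05. Fold changes followed gene length in these libraries, so 2677 genes of 1400 to 2190 exon bases, a range that holds every one of the 10 keratins except Krt7, were set beside them. Their medians were -0.06 in Auxin against Mock, -0.04 in Re-introduction against Auxin and -0.10 in Re-introduction against Mock. Scaling by total counts moved the all-gene medians to 0.26, -0.08 and 0.16 in the same order, and the share of calls that were higher from 52.4% to 63.3%, from 50% to 40.1% and from 50.9% to 59.9%.

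**Figure D2:**
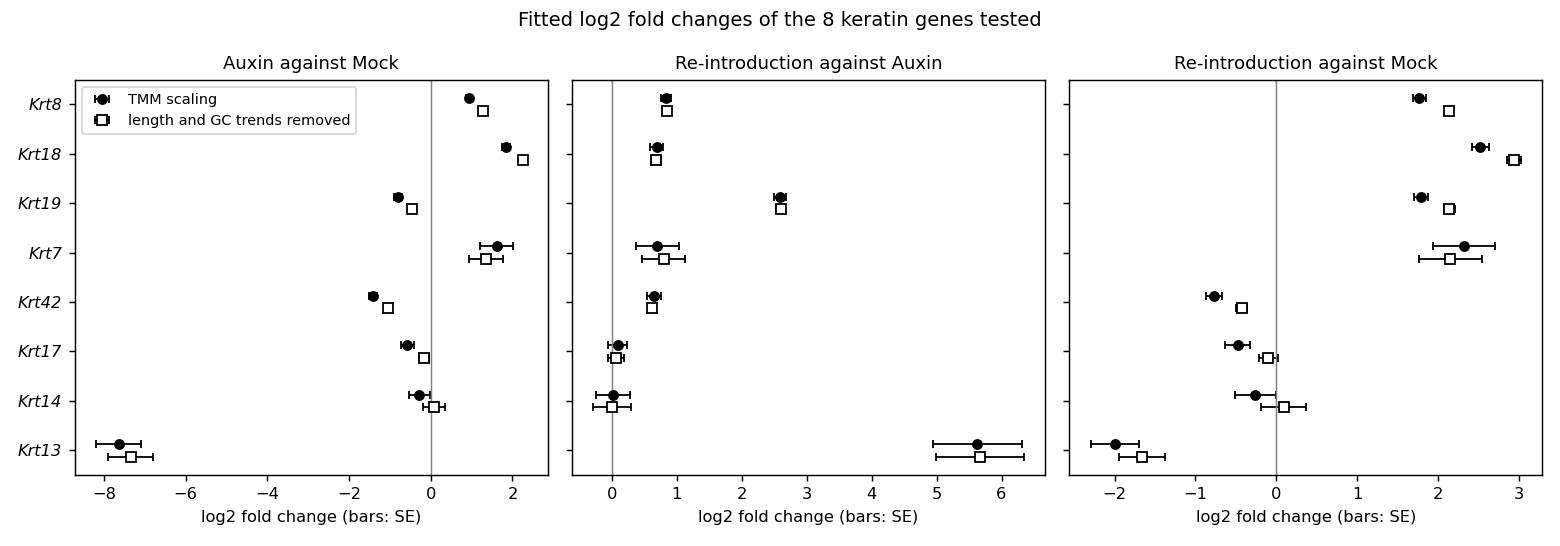
Fitted log2 fold changes of the 8 tested keratins in the 3 comparisons, each panel with its own axis, where bars are standard errors. Filled circles are the TMM-scaled fit and open squares the fit with length and GC trends removed. The settings lie close together in Re-introduction against Auxin (2.59 and 2.60 for Krt19), and removing the trends moves Krt8, Krt18, Krt19, Krt42, Krt17 and Krt14 upward in the other panels. Krt13 is drawn from 2 counts in Auxin, so its position there is not precise.

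Removing the trends gave 2.13 for Krt8, 2.94 for Krt18, 2.14 for Krt19 and -0.43 for Krt42 in Re-introduction against Mock. Each kept its direction and its call. In Re-introduction against Auxin the same fit gave 0.85 for Krt8, 0.68 for Krt18, 2.60 for Krt19 and 0.62 for Krt42.

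The balance of the filament partners needs levels per transcript length. In TPM, computed from the counts and exon lengths and scaled to the same sum in each library, the order in Mock was Krt42 at 18.3 ± 0.65, Krt8 at 9.32 ± 0.16, Krt17 at 5.46 ± 0.42, Krt19 at 5.24 ± 0.36 and Krt18 at 3.77 ± 0.5 (SD, n = 3). Krt17 and Krt19 overlapped. Krt13 (1.6 ± 0.43 TPM) and Krt14 (0.478 ± 0.049 TPM) followed, and Krt7, Krt20 and Krt5 came last. Krt20 overlapped both of its neighbours, and Krt7 lay above Krt5, which was at 0 in all 3 libraries.

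In Auxin, Krt8 led at 23.4 ± 0.78 TPM, ahead of Krt18 at 17.8 ± 0.14 TPM, Krt42 at 8.95 ± 0.65 TPM, Krt17 at 4.85 ± 0.68 TPM and Krt19 at 3.97 ± 0.096 TPM, with no overlap between neighbours. In Re-introduction the order was Krt8 at 39.8 ± 1.1 TPM, Krt18 at 27.1 ± 0.79 TPM, Krt19 at 22.6 ± 0.33 TPM, Krt42 at 13.3 ± 1.1 TPM and Krt17 at 4.93 ± 0.64 TPM. Krt14 and Krt13 overlapped at 0.506 ± 0.13 and 0.489 ± 0.14 TPM, and so did Krt7 and Krt20. By these counts the leading keratin was Krt42 in Mock and Krt8 in both other groups. The lead of Krt42 in Mock turned when the counts of the Krt8 pseudogene were added to Krt8, which then had 20.1, 20.2 and 19.5 TPM there against 18.8, 18.4 and 17.5 TPM for Krt42.

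Summed over the 27 type I and 26 type II genes of the family, keratin mRNA was 47.6 ± 1.5 TPM in Mock, 64.7 ± 1.5 TPM in Auxin and 112 ± 1.2 TPM in Re-introduction. Krt222 was placed in neither type and is left out of this sum and of the shares below. It had 0.501, 0.848 and 0.55 TPM in the same order of groups. TPM carry no TMM factor, so steps between groups can differ from those in CPM. Krt14 had 0.478 TPM in Mock and 0.522 TPM in Auxin, but 0.595 and 0.488 CPM. How much of the step in the sum from Mock to Auxin comes from scaling was not tested. Type II genes made 20.3% ± 0.5 of keratin mRNA in Mock, 36.7% ± 0.76 in Auxin and 35.7% ± 0.85 in Re-introduction (SD, n = 3), with the counts of the Krt8 pseudogene, described below, left out. Auxin and Re-introduction libraries overlapped in this share, and both lay above Mock. Krt42 made 38.4% of keratin mRNA in Mock, 13.8% in Auxin and 11.9% in Re-introduction. Krt8, Krt18 and Krt19 together made 38.6% ± 1.3, 69.8% ± 0.87 and 79.6% ± 1.6 in the same order. These shares rest largely on the genes and contrast used in the choice and are given as description.

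Within the simple-epithelial pair, Krt8 per Krt18 on the TPM scale was 2.5 ± 0.36 in Mock, 1.31 ± 0.038 in Auxin and 1.47 ± 0.015 in Re-introduction. The ranges, 2.21 to 2.9, 1.27 to 1.34 and 1.45 to 1.48, did not overlap. The ratio was lowest in Auxin and highest in Mock.

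**Figure D3:**
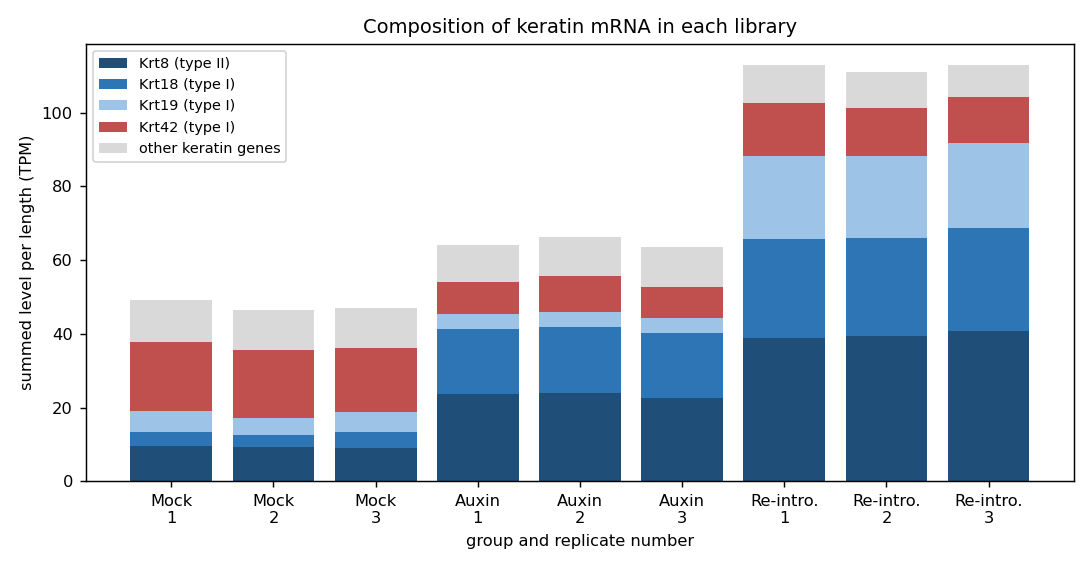
Stacked bars of keratin mRNA per transcript length (TPM, linear axis from 0) in each of the 9 libraries. The blocks are Krt8, Krt18, Krt19, Krt42 and all other type I and type II keratin genes. The bars sum to 47.6 TPM on average in Mock, 64.7 TPM in Auxin and 112 TPM in Re-introduction, and the Krt42 block is the largest named block in the Mock libraries alone. Krt222 and the counts of the Krt8 pseudogene are not in the bars. TPM carry no TMM factor, so differences in bar height between groups depend on the scaling.

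Krt8 has a processed pseudogene, Krt8-ps (ENSMUSG00000109325.1, mm10 chromosome 7, 23357125 to 23358069, plus strand), that aligns to it over 941 bases at 98.6% identity. Krt8-ps held 14.4, 13.5 and 12.9 CPM in the Mock libraries, 27.4, 29.5 and 26.7 in the Auxin libraries, and 46.8, 48.7 and 50.7 in those of Re-introduction. Its counts were 1.12 to 1.27 times those of Krt8 in every library. The counts of both genes are therefore uncertain, and how reads that map to both were shared out is not given in the sources used here.

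Summed before the fit, Krt8 and Krt8-ps gave 0.82 in Re-introduction against Auxin (edgeR adjusted p = 1.81e-06) and 1.81 in Re-introduction against Mock (adjusted p = 6.15e-09), beside 0.84 and 1.77 for Krt8 alone. With the pseudogene counts added to Krt8, the ratio of Krt8 to Krt18 was 5.37 ± 0.84 in Mock, 2.93 ± 0.042 in Auxin and 3.22 ± 0.07 in Re-introduction (SD, n = 3), in the same order as without them. Type II per type I mRNA was then 0.534 ± 0.022, 1.28 ± 0.034 and 1.21 ± 0.055, against 0.253 ± 0.0081, 0.581 ± 0.018 and 0.555 ± 0.021 without them. Whether type I mRNA was in excess in Auxin and Re-introduction thus depended on the pseudogene counts. Both of these sums were chosen after the counts of the pseudogene were seen.

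**Figure D4:**
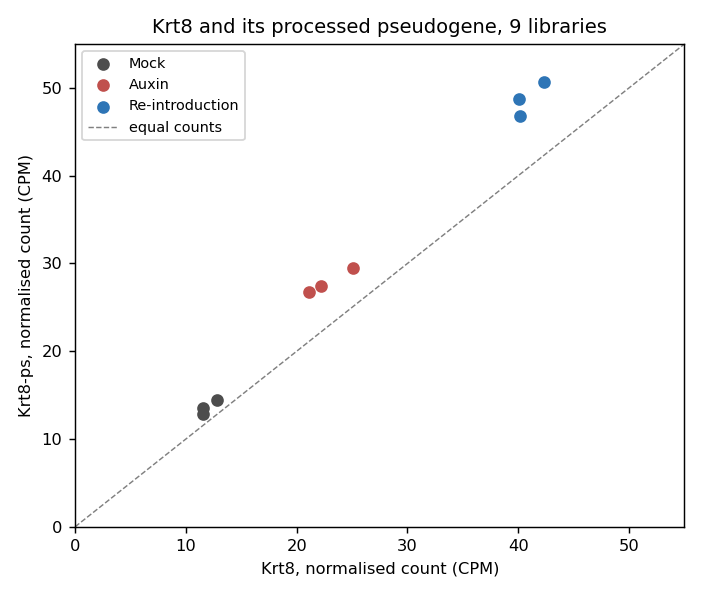
Normalised counts (CPM, linear axes from 0) of Krt8 on the horizontal axis and of Krt8-ps on the vertical axis, 1 point per library, with the dashed line at equal counts. All 9 points lie above the line, and the groups separate on both axes, from 11.9 CPM of Krt8 on average in Mock to 40.9 CPM in Re-introduction.

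Of the other keratins, Krt5 matches parts of 7 genes, the longest being 129 bases of Gm44323 at 100% identity. Krt18 matches Gm5200 over 1267 bases at 90.5% identity, and Krt17 matches Krt14 over 756 bases at 91%. Gm5200 is not in the count tables, so reads aligned to it would not be seen. The counts of Krt18 are uncertain to that extent. No match at that threshold was found for Krt13, Krt19, Krt20 or Krt42.

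The rest of the family was sparse. Of 44 other keratin genes, 13 had no count in any library and 20 had 1 to 20 counts over all libraries. Only 5 were tested, Krt1, Krt10, Krt16, Krt28 and Krt222. In Re-introduction against Auxin Krt10, Krt16 and Krt222 fell and Krt28 did not pass, and in Re-introduction against Mock Krt16 was lower. Of all genes tested, 50.9% passed in the first comparison (25.5% lower) and 68.1% in the second (33.4% lower). Krt1 had 2, 3 and 1 counts in the Mock libraries, 16, 16 and 9 in Auxin, and 6, 3 and 8 in those of Re-introduction. It was over the count filter in Auxin alone, so its differences are not counted. Krt10, the type I keratin of differentiating epidermis, had 3.28, 2.84 and 2.69 CPM in the Mock libraries, 4.22, 3.94 and 4.24 in the Auxin libraries, and 3.16, 2.41 and 2.54 in those of Re-introduction. It was highest in Auxin, fell from there by 0.60 log2 units (SE 0.125, edgeR adjusted p = 2.01e-03), and in Re-introduction overlapped Mock. Krt10 shares exon bases with Gm11940. Krt222, a keratin-like gene, had 1.16 ± 0.26, 1.5 ± 0.07 and 1.03 ± 0.082 CPM in Mock, Auxin and Re-introduction, and fell by 0.54 from Auxin (SE 0.18, adjusted p = 0.0272).

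Likeness to other genes was measured as the root-mean-square difference of log2 CPM profiles over the 9 libraries, each centred on its own mean, among 15925 genes. It is a description, since all profiles share the libraries. Nearest to Krt8 were Krt8-ps (0.0557), Anxa1 (0.108), which encodes the phospholipid-binding protein annexin A1, and Epas1 (0.127), which encodes a hypoxia-inducible transcription factor. Nearest to Krt18 were S100a6 (0.171), a calcium-binding protein gene, Rhbdf1 (0.174) and Gm17847 (0.189). Nearest to Krt19 were Lrp8 (0.178), a lipoprotein receptor gene, Edn1 (0.238), which encodes endothelin, and Fgfbp1 (0.27). Krt13 had no close match, the nearest being Apol6 (0.685), Nkx1-2 (0.739) and T (0.801). The closest pairs among the keratins themselves were Krt7 and Krt8 (0.288), Krt14 and Krt17 (0.367) and Krt17 and Krt42 (0.375). Next came Krt7 and Krt18 (0.39) and Krt18 and Krt8 (0.41), while Krt18 and Krt19 stood at 1.11. Krt7 and Krt14 had few counts, so their values are less certain.

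Other intermediate filament genes were mostly low in Auxin. Of 15 tested (16 listed), 2 were higher and 10 lower in Auxin against Mock, with a median log2 change of -0.52. From Auxin to Re-introduction 11 rose and 2 fell (median 0.38), and against Mock 4 were higher and 6 lower (median -0.24). Counts in this and the following lists stand beside the shares of all genes tested that passed. Those were 73.2% in Auxin against Mock (38.4% higher, 34.8% lower) and 50.9% in Re-introduction against Auxin (25.5% in each direction). In Re-introduction against Mock 68.1% passed (34.7% higher, 33.4% lower). Vim, the vimentin gene of mesenchymal filaments, had 180 ± 9.6, 32.8 ± 2 and 141 ± 4.3 CPM in Mock, Auxin and Re-introduction. It fell by 2.45 in Auxin (SE 0.064, edgeR adjusted p = 1.72e-10) and rose by 2.10 from there (SE 0.0633, adjusted p = 1.68e-09). The nuclear lamin genes Lmnb1 (553 ± 11, 293 ± 15 and 381 ± 12 CPM) and Lmnb2 (121 ± 2.7, 39.8 ± 3.1 and 71.7 ± 1.4 CPM) had the same order of groups, and each difference passed the test.

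Desmosomes are the junctions to which keratin filaments attach. Of 10 tested desmosome genes (14 listed), 7 were higher and 2 lower in Auxin against Mock (median 1.55). In Re-introduction against Auxin 3 rose and 4 fell (median -0.11), and against Mock 6 were higher and 3 lower (median 1.35). In this list and in that of the regulators below, 1 tested gene had at most 3 counts in a group, so its fitted value is imprecise. Dsg2, a desmosomal cadherin, had 60.7 ± 4.6, 203 ± 20 and 147 ± 4.7 CPM in Mock, Auxin and Re-introduction, and it shares exon bases with another gene. Jup, the plakoglobin gene, went the other way, with 160 ± 6.2, 107 ± 6.7 and 143 ± 7.7 CPM. Pkp4, an armadillo-family junction gene, had 142 ± 5.5, 154 ± 5.4 and 188 ± 4.7 CPM, of which the step from Mock to Auxin did not pass (edgeR adjusted p = 0.0568).

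Plakins tie keratin filaments to junctions and to other cytoskeletal fibres. Among 13 genes of plakins and keratin partners 4 were higher and 3 lower in Auxin against Mock, 5 rose and 3 fell in Re-introduction against Auxin, and 6 were higher and 5 lower in Re-introduction against Mock. The medians were 0.11, 0.09 and 0.09. Of all genes tested, 73.2%, 50.9% and 68.1% passed in the same order of comparisons. Plec, which encodes the filament linker plectin, had 92 ± 3, 271 ± 16 and 307 ± 21 CPM in Mock, Auxin and Re-introduction. Dst had 232 ± 40, 658 ± 200 and 648 ± 60 CPM, and Macf1 had 131 ± 20, 261 ± 60 and 353 ± 31 CPM. Dst and Macf1 are very long, Auxin replicate 2 was the lowest Auxin library for both (428 and 193 CPM), and the steps of Plec and Macf1 from Auxin to Re-introduction did not pass with total counts as the scaling. With the length and GC trends removed, Macf1 went from 0.99 to 0.18 in Auxin against Mock and from 1.43 to 0.55 in Re-introduction against Mock, and Dst, 2.83-fold and 2.79-fold higher than in Mock before, had log2 values of 0.68 and 0.55.

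Transcription regulators of epithelial genes were mostly higher in Auxin than in either other group. Of 15 tested (18 listed), 12 were higher and 3 lower in Auxin against Mock (median 1.18). From Auxin to Re-introduction 3 rose and 9 fell (median -0.67), and against Mock 10 were higher and 2 lower (median 0.67). Klf5, a Krüppel-like factor, had 55.2 ± 2.1, 169 ± 12 and 66.1 ± 1.5 CPM in Mock, Auxin and Re-introduction, and fell by 1.35 from Auxin (SE 0.0603, edgeR adjusted p = 2.46e-08). Klf4, also a stem cell gene, had 335 ± 8.6, 584 ± 17 and 361 ± 9.1 CPM. Tfap2c, the AP-2 gamma gene of trophectoderm, had 27.2 ± 0.65, 86.6 ± 4.1 and 45 ± 2.2 CPM. All 3 were highest in Auxin, where Krt8 and Krt18 were between their other levels.

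Markers of cell types that could be present were read as summed CPM over each list. Counts of markers that passed stand beside the shares of all genes given above. Stem cell markers summed to 6188 to 6373 in Mock, 7460 to 8050 in Auxin and 5933 to 6038 in Re-introduction, all 12 with counts in every group. In Auxin against Mock 7 were higher and 4 lower, so some members went against the sum. Of the 12, 2 rose and 8 fell from Auxin to Re-introduction. The 3 most abundant were Tfcp2l1 (988 ± 62, 1714 ± 94 and 1343 ± 15 CPM), Nanog (1014 ± 33, 1155 ± 85 and 890 ± 9.1 CPM) and Zfp42 (931 ± 17, 1048 ± 20 and 785 ± 11 CPM). With the length and GC trends removed, Tfcp2l1 went from a log2 value of 0.44 to -0.01 in Re-introduction against Mock and no longer passed. Pou5f1, which encodes the core factor Oct4 and is named after its values were seen, had 844 ± 58, 583 ± 49 and 578 ± 27 CPM, and was lower in Auxin than in Mock by log2 -0.53 (SE 0.0741, edgeR adjusted p = 5.24e-05).

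Trophectoderm, the embryonic tissue known for Krt8 and Krt18, was covered by 12 markers, all with counts in every group. They summed to 172 to 174 CPM in Mock, 249 to 273 in Auxin and 268 to 280 in Re-introduction. Of 10 tested, 6 were higher and 4 lower in Auxin against Mock, 3 rose and 1 fell in Re-introduction against Auxin, and 7 were higher and 2 lower in Re-introduction against Mock. The list shares Cdx2, Gata3 and Tfap2c with the epithelial regulators. Eomes had 35.4 ± 0.78, 25.6 ± 1.1 and 66.9 ± 1.6 CPM, with Auxin lowest and Re-introduction highest, and Tead4 had 63.9 ± 2.2, 97.6 ± 2.5 and 108 ± 8 CPM. The part of such cells in the keratin values was not tested.

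Stratified epithelium markers summed to 171 to 181 CPM in Mock, 223 to 228 in Auxin and 346 to 360 in Re-introduction. Flg, the filaggrin gene of cornified epidermis, was at 0 in every library, and Ivl was at 0 in Mock and Re-introduction. Of 6 tested of 12 listed, 2 rose and 1 fell in Re-introduction against Auxin, and 4 were higher and none lower in Re-introduction against Mock. Sfn had 62.8 ± 7.2, 48.9 ± 3.7 and 123 ± 4.4 CPM, Itga6 had 90 ± 2.5, 121 ± 6.7 and 173 ± 5.6 CPM, and Perp had 11.3 ± 0.078, 29 ± 1.5 and 30.7 ± 0.81 CPM. With the length and GC trends removed, the log2 values in Auxin against Mock went from 0.43 to -0.02 for Itga6 and from -0.36 to 0.05 for Sfn. Neither passed then, while Perp went from 1.36 to 1.57 and still passed.

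Primitive endoderm markers, another Krt8-expressing lineage, summed to 267 to 273 CPM in Mock, 151 to 164 in Auxin and 214 to 222 in Re-introduction, largely from Sparc (234 ± 3.7, 99.6 ± 7.7 and 167 ± 2.5 CPM). Of 11 tested, 8 were higher and 2 lower in Auxin against Mock, so the sum and the count of genes differ in sign. From Auxin to Re-introduction 2 rose and 6 fell. Lama1 had 21.7 ± 1.1, 31.6 ± 1.3 and 32 ± 2 CPM, and Dab2 had 3.54 ± 0.55, 9.18 ± 0.63 and 8.58 ± 0.76 CPM. With the length and GC trends removed, Lama1 went from a log2 value of 0.55 to 0.14 in Auxin against Mock and still passed.

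Fibroblast markers summed to 22 to 24.6 CPM in Mock, 44.2 to 53.5 in Auxin and 41 to 42.3 in Re-introduction, mostly from Thy1 (17.9 ± 1.2, 41.2 ± 4 and 37.5 ± 0.77 CPM). Fap and Twist2 were at 0 in all libraries, and Col3a1, Lum and Dcn were at 0 in Auxin as well. Pdgfrb had 4.4 ± 0.31, 6 ± 1 and 3.5 ± 0.12 CPM, and Col1a1 had 0.418 ± 0.06, 0.152 ± 0.033 and 0.251 ± 0.016 CPM. Of 4 tested, none rose and 2 fell in Re-introduction against Auxin. These lists were chosen with earlier results of these data known.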

How the data were processed

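Polyadenylated RNA from 9 libraries was analysed, in 3 groups of 3 biological replicates. The deposited tables hold raw counts by gene. Per the file headers, the authors counted exons by gene with featureCounts 2.0.6 in paired-end mode, without strand. Trim Galore 0.6.10, FastQC 0.12.1, Bowtie2 2.5.3, SAMtools 1.20 and the build mm10 are named in the submitters' processing notes, without their settings. More genes held even than odd low counts, so mates were counted singly and independent fragments are fewer than counts.

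Symbols matched 48058 of 48440 genes, and 9924 share exon bases with another gene. The 20838 genes passing filterByExpr (minimum count 10) entered 1 edgeR 4.0.16 quasi-likelihood fit (R 4.3.3, TMM scaling, group as the only term). Tests were two-sided, with Benjamini-Hochberg adjustment over all genes and a threshold of 0.05. The test was checked on simulated counts. CPM and TPM were computed from the counts, and TPM used exon lengths. Ratios of the low counts of Krt20 have exact (Clopper-Pearson) intervals at 95%.

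The members, lists and tests were chosen with earlier results of these data known. Every member was named, as were other keratins that reached 1 CPM on average in a group, the 3 most abundant genes of each list, and the 3 genes most like Krt8, Krt18, Krt19 and Krt13. Alternatives were DESeq2 1.42.0 (size factors and test), total counts, other filters, halved counts, 2-group fits, a replicate block, length and GC trends removed, each library left out, and Krt8 with its pseudogene. Replicate numbers did not pair the libraries. Promoters came from RefSeq (GRCm38.p6).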

Additional observations from a re-analysis of the deposited data

How the results depend on the processing

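Of the 6 keratins over the count filter in every group, the number past the threshold was 4 under all 18 alternatives in Re-introduction against Auxin and 4 to 5 in Re-introduction against Mock, where Krt17 was the one lost. With each library left out in turn the numbers were 4 and 4 to 5. Auxin against Mock chose the genes, and calls there say nothing on stability. Over all genes the number called was 12702 to 16236, 9142 to 11581 and 12248 to 15313 in Auxin against Mock, Re-introduction against Auxin and Re-introduction against Mock. Of 429 fold changes of the keratins under an alternative, 417 kept their direction and their side of the threshold, 4 lost the call and 8 changed sign. The 429 include Auxin against Mock, as well as Krt7 and Krt13, so this tally is a description and no measure of stability. Every change of sign was in Krt14 or Krt17. Krt14 had 0.08 in Auxin against Mock and 0.09 in Re-introduction against Mock with the length and GC trends removed. In Re-introduction against Auxin it had -0.06 with total counts alone and -0.02 with the counts halved, and -0.18 to 0.20 with each library left out (-0.18 without Auxin replicate 2, -0.12 without Re-introduction replicate 2, -0.02 without Re-introduction replicate 3). Krt17 had -0.04 in Re-introduction against Auxin without Auxin replicate 1, in a range of -0.04 to 0.24. None of these passed the threshold, and the cause was not tested. Krt17 also lost its call in Auxin against Mock with the trends removed (-0.16). Krt20 had too few counts to be tested. With no filter its fitted value in Re-introduction against Mock was 2.77, from 3 counts in Mock and 19 in Re-introduction. That value is a description with no test. With Auxin replicate 1 left out, Krt13 had no count in Auxin, and its fitted values are then no measure of size.

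Same-numbered libraries did not deviate together as a rule. Their correlations across 12311 genes were -0.55, -0.51 and 0.45 between Mock and Auxin. They were 0.08, 0.20 and -0.17 between Mock and Re-introduction, and -0.05, -0.15 and -0.31 between Auxin and Re-introduction. Libraries of different number also correlated, at 0.65 for Mock replicate 1 with Auxin replicate 2 and -0.59 for Mock replicate 1 with Auxin replicate 3. The source of these shared deviations was not tested. With the replicate number as a block, 14808, 9829 and 13639 of all genes were called in the 3 comparisons, and 4 and 5 of the 6 keratins in the comparisons of Re-introduction with Auxin and with Mock, as without it. Depth limits Krt5, Krt7, Krt13 in Auxin, Krt14 and Krt20, for which small differences were not detectable.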
